A study of Homo sapiens with 6 samples.

Results

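AP-1 is a family of dimeric transcription factors built from FOS and JUN proteins, which pair through a leucine zipper and read DNA with the adjoining basic region (together the bZIP domain). JUN proteins can pair with each other or with FOS proteins, whereas FOS proteins need a JUN partner to bind DNA stably. The small MAF proteins share the bZIP fold but lack a transactivation domain, and they act mainly as partners of the NRF and BACH factors. FOS, FOSB, JUN and JUNB are textbook immediate-early genes, whose transcripts appear soon after growth factors or stress and decay fast. The 10 genes described here were taken by symbol from the 26255 genes of each expression file: the FOS family (FOS, FOSB, FOSL1 and FOSL2), the JUN family (JUN, JUNB and JUND) and the small MAF genes (MAFF, MAFG and MAFK).

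The libraries came from 22RV1, a human castration-resistant prostate cancer (CRPC) cell line grown in RPMI medium with serum. There were 3 libraries of cells given bruceantin (BCT, a quassinoid) at 10 nM for 24 h and 3 libraries of cells given the solvent DMSO. No other line, dose or time was analysed here. Nothing states whether the libraries of a group came from separate cultures, so the p-values below measure the spread between these libraries, which may be technical. Expression is given as FPKM, sequenced fragments scaled to transcript length and to the mapped reads of the library, a scale on which genes can be set side by side. FPKM holds no counts, so the reads behind each gene are unknown. Set against DMSO replicate 1, the relative depths were 0.878 to 1 with DMSO and 1.05 to 1.13 with BCT. Every BCT library was thus deeper than every DMSO library, which bears on values near 0.

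Transcripts of prostate epithelium were present in all libraries. FOXA1 averaged 152.5 FPKM with DMSO and 144.3 FPKM with BCT, and the keratin genes KRT8 and KRT18 were called higher with BCT. Of 8 markers of blood, stromal and endothelial cells, 7 had means below 1 FPKM over the 6 libraries. The exception was COL1A1, which rose from 1.43 to 5.83 FPKM. The summed level of the 8 markers was 1.66 to 1.83 FPKM with DMSO and 5.51 to 6.91 FPKM with BCT, and without COL1A1 it was 0.212 to 0.430 and 0.468 to 0.607 FPKM, while CD3E was listed at 0 in every DMSO library. The part of these markers in the results was not tested.

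The promoters show what the motif letters look like upstream of these genes. RefSeq promoter windows (300 bases around each gene's start, GRCh38.p14) matched 8 of the 10 genes by symbol, FOSL1 and MAFK being unmatched. Both strands were searched for the AP-1 site TGACTCA, the cAMP response element TGACGTCA, its variant TGACATCA, the half-site TGACG, which TGACGTCA contains, and the TATA box TATAAA. The 5 windows below are shown because they hold the full sites or belong to the gene with the largest change, with every match in capitals and each sequence read 5′ to 3′ on the strand of its gene.
FOS, chr14:75278578-75278877, + strand: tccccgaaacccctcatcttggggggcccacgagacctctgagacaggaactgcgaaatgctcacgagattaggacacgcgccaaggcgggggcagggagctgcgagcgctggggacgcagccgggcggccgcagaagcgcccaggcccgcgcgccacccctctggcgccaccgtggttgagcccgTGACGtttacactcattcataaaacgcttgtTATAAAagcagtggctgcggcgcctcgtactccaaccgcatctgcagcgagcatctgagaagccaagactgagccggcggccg
JUN, chr1:58783998-58784297, - strand: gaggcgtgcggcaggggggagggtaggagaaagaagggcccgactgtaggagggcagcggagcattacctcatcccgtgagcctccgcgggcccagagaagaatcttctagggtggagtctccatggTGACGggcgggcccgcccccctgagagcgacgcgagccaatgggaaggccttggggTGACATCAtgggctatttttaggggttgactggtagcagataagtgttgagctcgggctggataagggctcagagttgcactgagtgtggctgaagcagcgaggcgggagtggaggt
FOSL2, chr2:28392608-28392907, + strand: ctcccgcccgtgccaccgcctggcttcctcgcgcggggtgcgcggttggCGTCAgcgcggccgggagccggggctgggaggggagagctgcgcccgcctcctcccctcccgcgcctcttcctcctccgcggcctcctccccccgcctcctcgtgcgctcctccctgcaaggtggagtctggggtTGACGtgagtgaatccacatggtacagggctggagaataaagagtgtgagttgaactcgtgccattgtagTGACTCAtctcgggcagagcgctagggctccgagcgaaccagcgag
JUND, chr19:18281573-18281872, - strand: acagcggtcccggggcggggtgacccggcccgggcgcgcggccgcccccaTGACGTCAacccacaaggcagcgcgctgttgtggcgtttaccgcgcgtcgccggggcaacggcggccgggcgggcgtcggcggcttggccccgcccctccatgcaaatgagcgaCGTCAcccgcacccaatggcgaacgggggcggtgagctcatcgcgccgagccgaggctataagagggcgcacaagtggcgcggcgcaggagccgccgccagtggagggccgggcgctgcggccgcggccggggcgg
MAFF, chr22:38201744-38202043, + strand: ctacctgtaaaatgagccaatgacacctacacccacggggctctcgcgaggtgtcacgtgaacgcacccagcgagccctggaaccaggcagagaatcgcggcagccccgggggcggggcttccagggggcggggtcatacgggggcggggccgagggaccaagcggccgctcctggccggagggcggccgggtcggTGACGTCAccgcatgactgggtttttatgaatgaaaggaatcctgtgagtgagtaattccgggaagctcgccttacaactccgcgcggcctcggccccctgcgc

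Positions count the start as 0. In FOS the half-site lay at -64 to -60 and the TATA box at -33 to -28. JUN held TGACATCA at -67 to -60. FOSL2 held TGACTCA at 4 to 10, the lone match to that site among the 8 genes. JUND and MAFF held the full cAMP response element, at -200 to -193 and at -54 to -47, the latter in the first of 2 MAFF windows. The half-site occurred in 8 of 8 genes, counted by gene, and in 24.6% of all 35116 promoter windows, counted by window. The other MAFF window held none of the motifs. The other shares over all windows were 4.95% for TGACTCA, 1.85% for TGACGTCA, 2.61% for TGACATCA and 11.5% for TATAAA, which occurred in FOS, FOSB and JUNB. MAFG, the gene with the smallest change, held the half-site too, at 3 to 7. These are matches of letters, with no measure of binding.

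The transcript ends were searched for AU-rich motifs, the short elements through which many immediate-early messages are marked for decay. In the canonical GENCODE transcripts (release 44 lifted to GRCh37), the pentamer ATTTA occurred in the 3′ UTR of 10 of the 10 genes, from 1 copy in FOSL1 and JUND to 9 copies in FOSL2. It occurred in 67.6% of 19379 coding genes with a 3′ UTR. The nonamer TTATTTATT, which contains ATTTA, occurred in 4 of the 10 genes and in 8.43% of all coding genes. The 10 genes had longer 3′ UTRs than the coding genes as a whole, with medians of 1456 and 1068 bases. Among the 8830 coding genes with 3′ UTRs of 500 to 2500 bases (median 1204), 77.5% held ATTTA and 7.03% held TTATTTATT. FOSL2, MAFG and MAFK, with 3′ UTRs of 4869, 4335 and 2668 bases, lie outside this length class. FOSL2 and MAFK are among the 4 genes with the nonamer, so these shares are no matched background for that count. The sites lie in the last exon of each gene on GRCh37 and are shown with 8 bases on either side, the nonamer in capitals.
FOS, chr14:75748765-75748789, + strand, exon 4: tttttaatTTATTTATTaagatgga
FOSL2, chr2:28639224-28639248, + strand, exon 4: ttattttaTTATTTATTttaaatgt
MAFF, chr22:38611923-38611947, + strand, exon 3: cccactgtTTATTTATTgcacggat
MAFF, chr22:38612412-38612436, + strand, exon 3: cctagaatTTATTTATTtcctgact
MAFK, chr7:1582489-1582513, + strand, exon 3: ccatttcaTTATTTATTttttgtgc

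The FOSL2 site lies beyond the end of the span that the deposited table gives the gene. All 3 JUN family genes consist of 1 exon in these transcripts, the FOS family genes of 4 exons and the small MAF genes of 3 exons.

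BCT-treated 22RV1 cells had more transcript of 9 of these 10 genes, where 13.9% of all tested genes were called higher, and none of the 10 was lower. FOS rose 21.3-fold, FOSL1 14.3-fold and JUN 11.4-fold in mean FPKM. FOSL2, MAFF and FOSB rose 4.39-fold to 5.52-fold, and JUNB, MAFK and JUND rose 2.03-fold to 2.22-fold. MAFG was at 1.17 times its DMSO level and was not called. The values came from whole cultures, so more expressing cells and more transcript per cell cannot be told apart.

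The comparison was made with limma on log2(FPKM + 0.1), a scale that understates the change of low genes, over the 12729 genes that averaged 1 FPKM or more. A gene was called at an absolute log2 fold change above 0.85 with an FDR below 0.05. Of all tested genes, 13.9% were called higher and 17.8% lower (31.6% together), and 82.1% passed the FDR alone. The median log2 fold change was 2.06 over the 10 AP-1 genes and -0.04 over all tested genes. FOSB and FOSL1 had DMSO means below 1 FPKM and reached the filter through their BCT values, so their calls follow in part from the filter. Among the 8 genes that would pass on their DMSO mean alone, 7 were called higher, beside 1503 of all 12363 tested genes of that kind. The median was 1.66 over the 8 genes and -0.06 over the 12363. No BCT library overlapped a DMSO library in any of the 10 genes, with BCT higher in each, as in 41.0% of all tested genes (85.3% with either group higher).

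**Figure D1:**
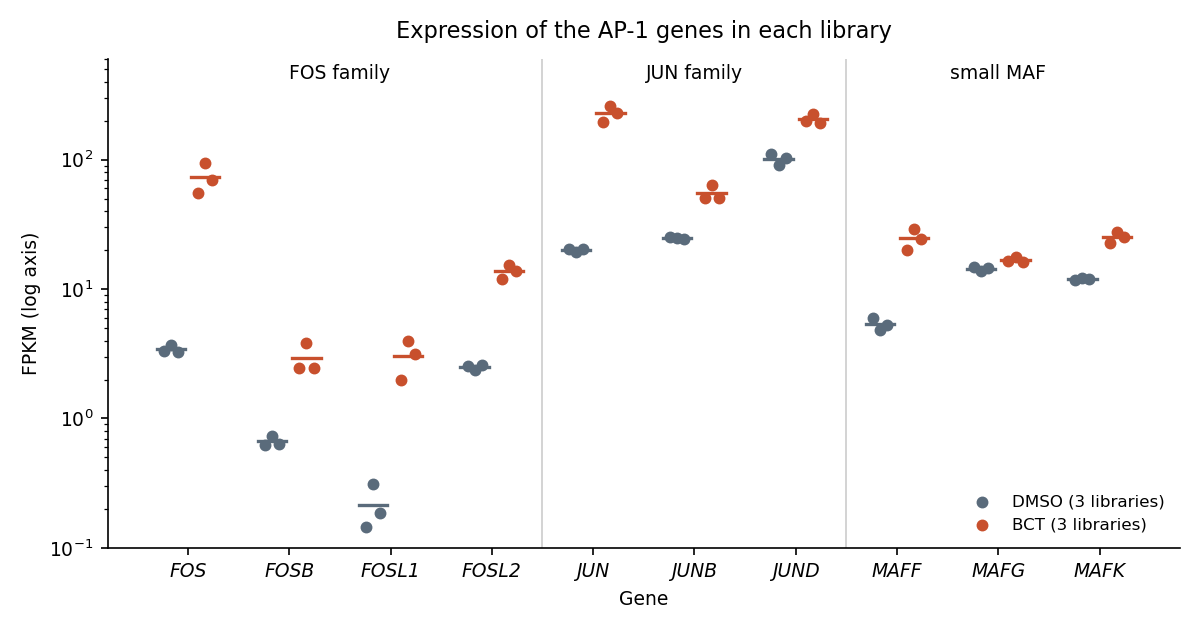
FPKM of the 10 AP-1 genes on a log axis in the 3 DMSO (grey) and 3 BCT (orange) libraries, ordered left to right by replicate number, with the group mean as a bar. BCT points lie above DMSO points in every gene, by the least in MAFG (16.1 to 17.7 against 13.8 to 14.8 FPKM).

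FOS, the founding partner of JUN in AP-1, lies on chromosome 14 from 75745481 to 75748937 (hg19, as are the positions that follow). It was at 3.32, 3.71 and 3.26 FPKM in DMSO replicates 1 to 3 and at 55.3, 94.4 and 69.2 FPKM in BCT replicates 1 to 3. The lowest BCT library was therefore far above the highest DMSO library, although the BCT libraries varied among themselves more than the DMSO libraries. The means were 3.43 ± 0.242 and 73.0 ± 19.8 FPKM (SD, n = 3 each), giving a log2 fold change of 4.34 (SE 0.17, adjusted p = 4.29e-07, limma with Benjamini-Hochberg adjustment). FOS ranked 25 from the top among the log2 fold changes of all tested genes.

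FOSB, which also encodes a short form without the transactivating C-terminus, lies on chromosome 19 from 45971253 to 45978437. It was measured at 0.624, 0.736 and 0.632 FPKM in DMSO cells, and the BCT cells gave 2.44, 3.86 and 2.44 FPKM. BCT replicate 2 stood above the other two, and all BCT libraries exceeded all DMSO libraries. Its log2 fold change was 1.95 (SE 0.20, adjusted p = 2.51e-05 from limma), and 1.21 with a pseudocount of 1.

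FOSL1 (Fra-1) encodes a FOS protein without a strong transactivation domain that is known from invasive epithelial cells. It lies on chromosome 11 from 65659607 to 65667997 and was the lowest of the 10 genes with DMSO, at 0.144, 0.310 and 0.185 FPKM. With BCT it was at 1.98, 4.002 and 3.13 FPKM, a log2 fold change of 3.31 (SE 0.30, adjusted p = 1.46e-05). This value depends on the pseudocount and was 1.71 with a pseudocount of 1, still above the threshold.

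FOSL2 (Fra-2), the other FOS protein without a strong transactivation domain, is given chromosome 2 from 28607276 to 28637516 in the deposited table. It was at 2.53, 2.36 and 2.57 FPKM in the DMSO libraries, against 12.0, 15.4 and 13.7 FPKM in the BCT libraries. The groups were wide apart beside the spread within them, with a log2 fold change of 2.41 (SE 0.10, adjusted p = 4.57e-07). The deposited table gives FLJ31356 the same span, and that gene was at or below 0.033 FPKM in every library.

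JUN, the main DNA-binding partner of FOS and a target of JNK phosphorylation, lies on chromosome 1 from 59246463 to 59249785. It was measured at 20.6, 19.4 and 20.2 FPKM in DMSO cells, and the BCT cells gave 195.5, 262.2 and 230.0 FPKM. The DMSO libraries were nearly level and every BCT library was far above them. The means were 20.1 ± 0.585 and 229.2 ± 33.4 FPKM (SD, n = 3 each), giving a log2 fold change of 3.496 (SE 0.10, adjusted p = 1.59e-07).

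JUNB, a weaker activator that can hold back JUN at some promoters, lies on chromosome 19 from 12902310 to 12904125. It was at 25.4, 24.9 and 24.2 FPKM in the DMSO libraries, against 50.6, 63.8 and 50.8 FPKM in the BCT libraries. The groups did not overlap, and its log2 fold change of 1.14 (SE 0.09, adjusted p = 6.55e-06) was among the smaller ones. JUND, the most constantly expressed JUN gene in many cells, lies on the same chromosome from 18390504 to 18392466. It was measured at 110.1, 90.6 and 103.9 FPKM in DMSO cells, and the BCT cells gave 199.2, 227.0 and 191.2 FPKM. JUND had a log2 fold change of 1.02 (SE 0.09, adjusted p = 1.10e-05), whose 95% interval of 0.82 to 1.22 reached below the fold threshold.

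MAFF, the small MAF gene known to respond to stress and cytokines, lies on chromosome 22 from 38597939 to 38612517. It was at 6.004, 4.80 and 5.25 FPKM in the DMSO libraries, against 20.2, 29.3 and 24.5 FPKM in the BCT libraries. All BCT libraries were above all DMSO libraries, with a log2 fold change of 2.17 (SE 0.14, adjusted p = 2.10e-06). MAFG, the small MAF gene often partnered with NRF2, lies on chromosome 17 from 79876145 to 79885587. It was measured at 14.8, 13.8 and 14.5 FPKM in DMSO cells, and the BCT cells gave 16.5, 17.7 and 16.1 FPKM. These groups did not overlap and the FDR was passed (adjusted p = 0.00729), but the log2 fold change of 0.22, with a 95% interval of 0.09 to 0.35, stayed below the fold threshold.

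MAFK, the third small MAF gene, is given chromosome 7 from 1570368 to 1596066 in the deposited table. It was at 11.8, 12.1 and 12.0 FPKM in the DMSO libraries, against 22.8, 27.8 and 25.2 FPKM in the BCT libraries, a log2 fold change of 1.06 (SE 0.07, adjusted p = 3.38e-06). TMEM184A, on the opposite strand, is given the same span there. On GRCh37 the canonical transcript of MAFK runs from 1570338 to 1582679 and that of TMEM184A from 1581871 to 1595841. Their exons share 809 bases. TMEM184A was measured at 6.84 to 8.01 FPKM in DMSO cells, and the BCT cells gave 14.9 to 15.6 FPKM, a log2 fold change of 1.02. The library kit does not keep the strand, so reads of MAFK and TMEM184A in the shared bases cannot be told apart and the MAFK value is uncertain.

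**Figure D2:**
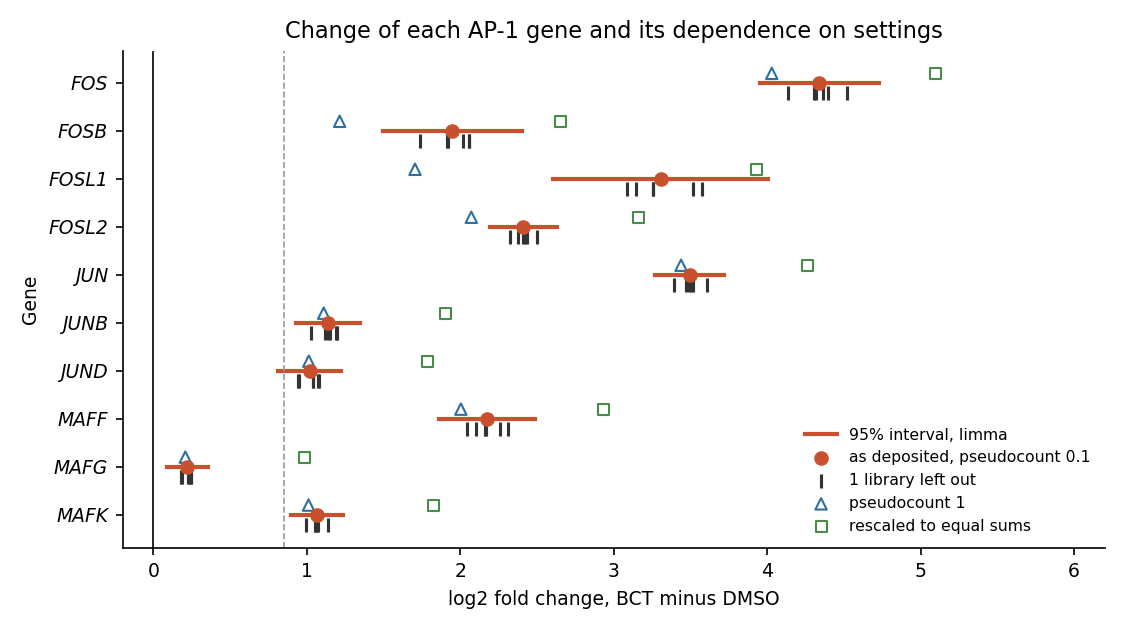
Log2 fold change (BCT minus DMSO) of each AP-1 gene with its 95% interval from limma, beside the values with 1 library left out (ticks), a pseudocount of 1 (triangles) and libraries rescaled to equal FPKM sums (squares), with the fold threshold dashed. The order runs from 4.34 for FOS to 0.22 for MAFG, and MAFG passes the threshold after rescaling alone.

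Every one of the 10 genes kept a positive log2 fold change as deposited and under the 4 other scalings tried. Rescaling to equal FPKM sums put MAFG at 0.98 and called it, but this scaling raised the median of all tested genes to 0.72 and turned the calls over all genes from 1764 higher and 2263 lower to 5614 higher and 668 lower. The share of calls that were higher went from 43.8% to 89.4%. The FPKM sums were 1169649 to 1572321 with DMSO and 757534 to 799838 with BCT, and 1 short RNA gene, MIR6087, took 43.5% to 55.3% of them with DMSO and 31.7% to 32.5% with BCT.

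Within the BCT group the libraries stood in a similar order in most of the 10 genes. BCT replicate 2 was the highest BCT library in 10 of the 10 genes, and BCT replicate 1 was the lowest in 8 of them, with BCT replicate 3 the lowest in JUND and MAFG. Among all 1764 genes called higher, BCT replicate 2 was the highest in 56.9% and BCT replicate 1 the lowest in 85.9%. Across all tested genes, BCT libraries correlated with DMSO libraries at 0.851 to 0.896 and with each other at 0.959 to 0.966, correlations across genes that are not independent replicates. Without BCT replicate 1 the log2 fold changes of FOS and JUN were 4.52 and 3.61, and without BCT replicate 2 they were 4.14 and 3.39.

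The balance within each family also differed between the treatments, and these shares do not move when a library is multiplied by 1 factor. Quantile normalization, which is no such factor, put JUN at a log2 fold change of 3.67 and JUND at 1.28. JUN made up 13.2% to 14.4% of the JUN family FPKM with DMSO and 43.9% to 48.7% with BCT. JUND went from 67.2% to 70.5% with DMSO to 40.5% to 44.7% with BCT. JUNB took 16.3% to 18.4% and then 10.8% to 11.5%. The JUN family sum was 146.4 ± 10.7 FPKM with DMSO and 490.1 ± 56.1 FPKM with BCT (SD, n = 3 each). The shares of the DMSO and BCT libraries did not overlap for any of the 3 genes.

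In the FOS family, FOS took 49.1% to 52.1% of the sum with DMSO and 77.1% to 80.2% with BCT. FOSL2 took 33.2% to 38.7% with DMSO and 13.1% to 16.8% with BCT, although its own level was higher with BCT. FOSB likewise took 9.43% to 10.35% with DMSO and 2.76% to 3.39% with BCT. FOSL1 took 2.18% to 4.36% and 2.75% to 3.54%, ranges that overlap. The family sum was 6.79 ± 0.275 FPKM with DMSO and 92.6 ± 23.2 FPKM with BCT. Among the small MAF genes, MAFF took 15.6% to 18.4% with DMSO and 33.9% to 39.2% with BCT, MAFG 44.8% to 45.7% and 23.6% to 27.7%, and MAFK 36.2% to 39.5% and 37.2% to 38.3%. Thus the MAFK share overlapped between the treatments and the other two did not.

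**Figure D3:**
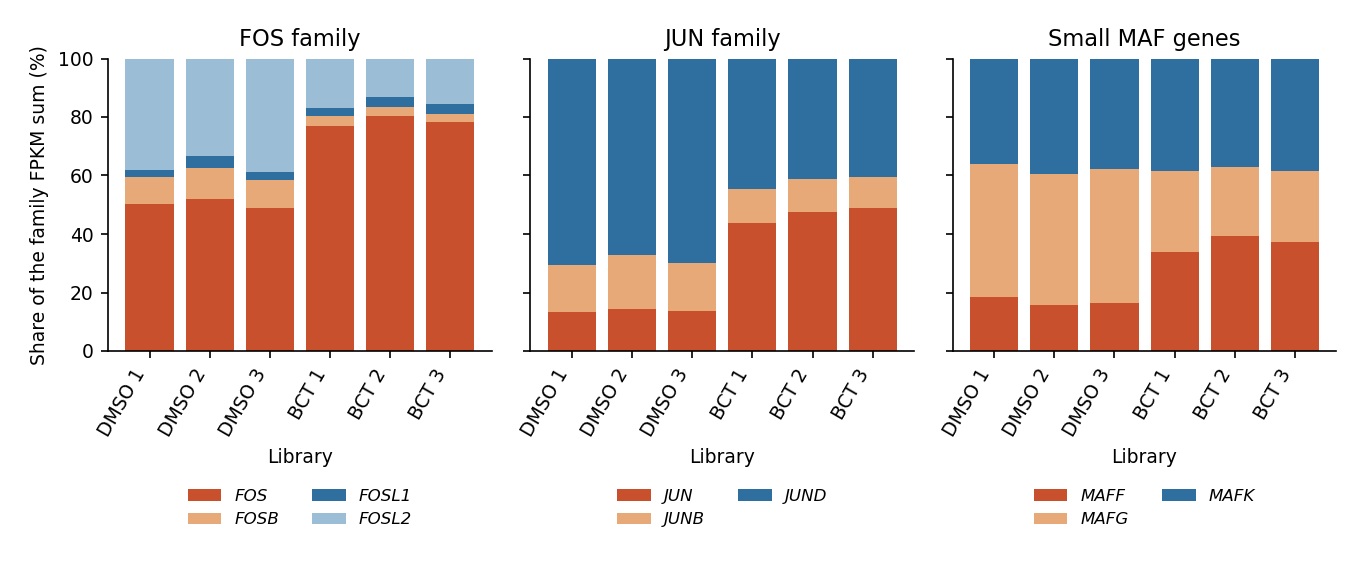
Share of each gene in the FPKM sum of its family (%, stacked to 100) in each of the 6 libraries, for the FOS family, the JUN family and the small MAF genes. JUN takes 13.2% to 14.4% of its family with DMSO and 43.9% to 48.7% with BCT, and FOS and MAFF take larger shares with BCT as well.

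Ratios within a library were taken for 3 pairs. The ratio of JUN to JUND was 0.187, 0.214 and 0.195 in the DMSO libraries and 0.981, 1.16 and 1.20 in the BCT libraries. The ratio of MAFF to MAFG was 0.349 to 0.405 with DMSO and 1.22 to 1.66 with BCT. The ratio of FOSL1 to FOSL2 was 0.0569 to 0.131 with DMSO and 0.164 to 0.259 with BCT, a smaller step that rests on low FOSL1 values. Its log2 difference of 0.89 between the groups turned to -0.37 with 1 FPKM added to each value, so no direction is given for this pair. An exact test of 3 libraries against 3 cannot give a p below 0.1, so the ratios are given without one.

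The order of the levels differed between the treatments. With DMSO it was JUND, JUNB, JUN, MAFG, MAFK, MAFF, FOS, FOSL2, FOSB and FOSL1, and the values of neighbours in this order did not overlap. With BCT it was JUN, JUND, FOS, JUNB, MAFK, MAFF, MAFG, FOSL2, FOSL1 and FOSB. Here the values of JUN (195.5 to 262.2 FPKM) overlapped those of JUND (191.2 to 227.0), those of FOS (55.3 to 94.4) overlapped those of JUNB (50.6 to 63.8), those of MAFK overlapped those of MAFF, and those of FOSL1 overlapped those of FOSB.

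The further genes of the pathway came from lists that are described by their counts. Of 17 other bZIP genes that can pair with FOS, JUN or small MAF proteins or are close kin of them, 10 were tested, 1 was called higher and 1 lower, and the median log2 fold change was 0.08. ATF3, a stress-induced factor that pairs with JUN proteins, rose from 20.9 to 24.4 FPKM in the DMSO libraries to 174.0, 236.3 and 189.7 FPKM in the BCT libraries (log2 fold change 3.13, SE 0.11). NFE2L3 (NRF3), a partner of small MAF proteins, fell from 3.43 ± 0.138 to 1.01 ± 0.184 FPKM (log2 fold change -1.68). These counts lie near or below the shares over all tested genes (13.9% higher, 17.8% lower). Among other partners of small MAF proteins, NFE2L2 (NRF2) was at 22.1 and 23.9 FPKM and BACH1 at 2.97 and 3.09 FPKM, neither being called. BACH2 and NFE2 were too low to be tested, with BACH2 at 0.060 to 0.067 FPKM in DMSO cells and 0.413 to 0.671 FPKM in BCT cells, and NFE2 listed at 0 in every DMSO library and at 0.117 to 0.207 FPKM in BCT cells.

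Of 24 genes for MAP kinases, their activating kinases and regulators of FOS and JUN, 22 were tested, 3 were called higher and 4 lower, with a median of -0.03. These shares are close to the 13.9% and 17.8% over all tested genes. MAP2K3, which activates p38 kinases, rose from 35.5 ± 0.743 to 105.1 ± 11.3 FPKM (log2 fold change 1.56). MKL1, a coactivator of SRF, rose from 4.23 to 9.43 FPKM, and FBXW7, a ubiquitin ligase subunit for which JUN is a known substrate, rose from 6.93 to 13.2 FPKM. MAP2K6, the other main p38 activator, fell from 5.75 ± 0.456 to 1.10 ± 0.180 FPKM (log2 fold change -2.29). The p38 kinases MAPK12 and MAPK11 and the ERK kinase MAPK3 fell by 0.91 to 1.10 on the log2 scale. SRF, which drives FOS through its serum response element, was at 23.4 and 23.3 FPKM. The JNK gene MAPK8 was at 10.1 ± 0.156 FPKM with DMSO and 6.11 ± 0.344 FPKM with BCT, a log2 fold change of -0.71 that did not reach the fold threshold.

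Of 22 genes known as AP-1 targets, 13 were tested, 7 were called higher and 1 lower, where 13.9% and 17.8% of all tested genes were. The median was 1.498, and it was 0.29 over the 10 targets whose DMSO mean alone passes the filter, a subset taken with the values in view. MMP10, a stromelysin protease, went from 0.127 ± 0.0330 to 3.98 ± 0.453 FPKM, and CXCL8, a neutrophil chemokine, from 0.0480 ± 0.0130 to 2.19 ± 0.817 FPKM. HBEGF, an EGF receptor ligand, rose from 1.15 ± 0.0240 to 11.6 ± 1.33 FPKM (log2 fold change 3.22, SE 0.10), and LIF, a cytokine of the IL-6 type, rose from 0.618 to 4.68 FPKM. MMP10, CXCL8 and LIF reached the filter through their BCT values alone. Without BCT replicate 2 or BCT replicate 3 the list had 6 genes called higher, and its median was 0.97 or 1.02. Of those 10 targets, 4 were called higher and 1 lower, beside 1503 and 2263 of the 12363 genes that pass on their DMSO mean. GJA1, the gap junction gene connexin 43, fell from 21.6 ± 0.531 to 6.99 ± 0.250 FPKM. The other genes called higher were DUSP1, EDN1 and VEGFA, which fall outside the naming rule and were picked with their values in view. CCND1 (cyclin D1), a classical target, was at 867.2 ± 4.63 and 892.8 ± 114.2 FPKM and was not called. The 9 targets left untested, among them MMP1, MMP9, PLAU and IL6, had means below 1 FPKM, and IL6 was listed at 0 in every DMSO library.

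Of 10 genes known to be controlled through sites bound by small MAF heterodimers, 2 were called higher and 3 lower, with a median of 0.11, beside 13.9% and 17.8% of all tested genes. HMOX1 (heme oxygenase 1) rose from 2.20 ± 0.290 to 9.04 ± 2.94 FPKM and SLC7A11, a cystine transporter, rose from 7.96 to 22.7 FPKM. FTL (ferritin light chain) fell from 666.7 ± 51.7 to 171.5 ± 24.0 FPKM and GCLC fell from 37.6 to 15.6 FPKM. The list thus held genes that changed in both directions.

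The genes whose pattern over the 6 libraries was most like that of each member were found by Pearson's r of log2(FPKM + 0.1), a description dominated by the step between the treatments that all such genes share. For FOS these were MARK3 and SLC3A2 (r = 0.9999 and 0.9998), and 1592 tested genes had an r above 0.99 with FOS. For JUN they were BTG2, an antiproliferative immediate-early gene, and DUSP8, a phosphatase of MAP kinases (r = 0.9999 for each). For FOSL2 they were the histone gene H3F3B and the clock gene CRY2, for FOSB RHBDD3 and LRP5L, and for FOSL1 CHKB and POLM. For JUNB they were FBXW5 and GADD45B, for JUND TTC32 and GPR108, for MAFF CABYR and GTF3C5, and for MAFK MEF2D and CXCL8. MAFG had the fewest close genes, with 11 above 0.99, led by BSDC1 (r = 0.9976) and TMEM200B (r = 0.9964).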

How the data were processed

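Total RNA of 22RV1 cells was the input for 3 DMSO and 3 BCT libraries, made with a TruSeq RNA kit and then sequenced. Per the labels, the submitters' processing notes name CASAVA, Trimmomatic 0.38, HISAT2, HTSeq and the hg19 build. The study's methods name HISAT2 and StringTie, and the gene annotation is not given in the sources used here. The deposited FPKM values per gene, made by the authors, were used without rescaling. They hold no counts, so no interval for counting error can be given. The relative depth of the libraries was read from the steps between low values of 0.02 to 0.15 FPKM.

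Genes averaging 1 FPKM or more across all 6 libraries were tested in limma 3.58.1 (R 4.3.3, empirical Bayes with trend) on log2(FPKM + 0.1), all 12729 in 1 fit, with Benjamini-Hochberg adjustment. Calls needed an FDR below 0.05 together with a log2 fold change beyond 0.85 in either direction. Tested on simulated data of 12728 genes for this comparison, the fit recovered 198 of the 200 genes given a log2 change of 1.5, with 2 false calls. The simulated noise was independent between genes, and no gene was given a change near 0.85. In the data 31.6% of tested genes were called, so the simulation does not cover calls near the threshold, such as that of JUND. Plots and sums used Python 3.11.15 with pandas 2.3.3, scipy 1.17.1 and matplotlib 3.10.9.

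The 10 genes and all lists were chosen with earlier results of these data known. Text names all 10 genes, up to 4 called genes in each direction with the largest change from each list of partners, upstream genes, AP-1 targets and small MAF targets, the 2 genes most like each member, and genes whose span overlaps a member. Further genes of the lists, called, uncalled or untested, were picked with their values in view. Alternatives covered the pseudocount, the filter, the FDR, 4 scalings, the variance settings of the fit, the replicate block and each library left out. No test used a sequence. Some genes of the lists are not reported here by name.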

Additional observations from a re-analysis of the deposited data

How the results depend on the processing

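Over 18 alternatives the 10 AP-1 genes gave 178 fold changes, of which 177 stayed positive on the same side of the thresholds. The other was MAFG, at 0.98 and called after rescaling to equal FPKM sums. The filters, the FDR, the variance settings of the fit and the replicate block cannot move a fold change. Those settings repeat its main value and bear on the adjusted p alone. FOSB and FOSL1 could not be tested at a mean of at least 5 FPKM. Rescaling to equal FPKM sums called 6282 of 12729 genes in the whole table against 4027, and 6 of 10 bZIP partners against 2. Without a filter on low values 5 of 17 bZIP partners were called, beside 5428 of 21543 genes in the whole table. With a minimum mean of 5 FPKM, 1 of 5 bZIP partners and 5 of 9 AP-1 targets (against 8 of 13) were called. Over the whole table that minimum gave 2727 calls among 9319 genes. With a pseudocount of 1 the log2 ratio of FOSL1 to FOSL2 reversed from 0.89 to -0.37. The cause was not tested. A filter on a DMSO mean of at least 1 FPKM was chosen after seeing the data. It left 5 of 10 AP-1 targets called (4 higher, 1 lower) and 7 of 8 AP-1 genes. Over the whole table it left 3766 of 12363 genes called (1503 higher, 2263 lower).

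With 1 library left out, 3822 to 4428 genes of the whole table, 9 AP-1 genes in each case, 2 bZIP partners, 7 to 9 upstream genes, 7 to 9 AP-1 targets and 5 to 6 small MAF targets were called. Whether the replicate numbers pair the libraries is not known. The deviations of same-numbered libraries correlated at 0.116, 0.0328 and 0.0342, and those of differently numbered libraries at -0.115 to 0.074. Such weak values cannot decide it. A replicate block gave 4033 calls (1767 higher, 2266 lower) and again 9 AP-1 genes. FPKM values without counts leave the precision of low genes such as FOSL1 unknown.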

Other observations

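MAFG-AS1, an antisense RNA gene 117 bases from MAFG in the deposited positions, was chosen after its values were seen. The DMSO libraries gave 4.76, 4.65 and 5.24 FPKM, the BCT libraries gave 2.66, 1.55 and 1.95 FPKM, and the gene was called lower (log2 fold change -1.24, adjusted p = 0.000174 from limma). The groups did not overlap, and MAFG on the opposite strand was slightly higher with BCT (log2 fold change 0.22, not called). The library kit does not keep the strand, and the annotated spans do not overlap.

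CCDC85B, 500 bases from FOSL1 and also chosen after its values were seen, gave 43.8 to 45.8 FPKM in DMSO cells and 11.9 to 17.04 FPKM in BCT cells, a log2 fold change of -1.71. SIRT7, 86 bases from MAFG, had a log2 fold change of 0.40 and was not called.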
